A study of Bos taurus with 6 samples.

Results

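The genes described here are the 86 cell cycle and DNA replication genes of the array, chosen by name. A gene was taken if its symbol in the platform's annotation belonged to the MCM, ORC, CDC, cyclin (CCN, letters A to H), cyclin-dependent kinase (CDK), CDK inhibitor (CDKN), centromere protein (CENP), PLK or E2F series, or was 1 of a short set of mitotic and nucleotide synthesis genes such as AURKA, AURKB, BUB1, KIF20A, UBE2C, PCNA, RRM2 and TYMS. MKI67, TOP2A and KIF11 also fall under the rule and are not analysed here. The genes described are 86 of 9155 named genes, and 119 probe sets carried their names. Where a gene had several probe sets (28 of the 86), the brightest one stood for it, by its log2 signal averaged across all 6 arrays after values under 15 were raised to 15. The choice used no difference between conditions.

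Bovine mesenchymal stem cells (MSCs) from bone marrow, adult progenitors that can form cartilage, bone and fat, were held in agarose, a hydrogel in which cells stay rounded. The medium was chemically defined. Constructs without added growth factor were taken at days 3, 21 and 42, and constructs with transforming growth factor beta 3 (TGF-beta3), which drives MSCs towards cartilage, at days 21 and 42. A further construct had TGF-beta3 throughout, was cultured unloaded for 21 days and was then compressed dynamically for 21 days, to day 42. Total RNA was measured on 1 Affymetrix array for each of these 6 conditions, so no condition had a replicate, and the labels do not say from how many animals the cells came.

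A dividing cell copies its DNA in S phase and separates the copies in mitosis. Replication origins are licensed when the ORC complex, CDC6 and the MCM helicase are loaded on DNA. D and E cyclins with their kinases inactivate the retinoblastoma protein and so free E2F factors to switch on replication genes, while CDK inhibitors hold this step back. A and B cyclins with CDK1 then drive mitosis, and the anaphase-promoting complex ends it by marking cyclins for destruction. In bulk RNA, fewer dividing cells and less of a transcript per cell cannot be told apart.

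Signals below are the deposited array intensities of a gene's probe set, and levels are compared between arrays, never between genes. A floor was set at 15.1, the 40th percentile of all values; a value under it was treated as lying at it, and a difference against such a value is given as "at least". "Higher" and "lower" refer to a difference of at least 2-fold between 2 arrays, with no test, since each side was 1 array. "Rose" and "fell" are kept for a limma test of TGF-beta3 over days 21 and 42, which set 2 arrays with it against 2 without it and included a term for day. Its fitted differences take a value under the floor as lying at it, so for genes under the floor on an array of the test they depend on where the floor was set, and are neither exact folds nor bounds.

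The arrays were scaled alike but were not equal in other respects. Hybridisation spikes, foreign transcripts added in fixed amounts, had a median signal between 2617 and 3727 on 4 arrays but reached 7304 at day 42 with TGF-beta3 unloaded and 5822 with loading. The spikes differed by log2 1.32 between the TGF-beta3 and untreated arrays of day 42 and by 0.30 between those of day 21, and 62 ribosomal protein genes by a median of 1.26 and 0.48. The 3' to 5' signal ratio of the GAPDH controls was 1.51 to 1.72 at days 3 and 21. At day 42 it was 2.27 without TGF-beta3, 2.15 with it and 1.80 with loading. That of the cyclophilin controls was 7.52 on the loaded array, 4.95 on the unloaded day 42 array with TGF-beta3, and 4.86 to 6.34 on the others. The marker genes bear on what the samples held. Of 10 marrow stromal cell markers vimentin (VIM) lay between 4105 and 7692 on every array, NT5E rose, CD44, CXCL12 and VCAM1 fell, and LEPR was under the floor on all 6 arrays. The summed signal of 6 chondrocyte markers was between 4164 and 7094 without TGF-beta3 and between 27644 and 46251 with it. The summed signal of 10 macrophage and blood cell markers was between 1271 and 7766 without TGF-beta3 and between 123 and 239 with it, most of it S100A12 without TGF-beta3 (1018 to 7152). CD68, CD53 and AIF1 lay under the floor on all 3 arrays with it. At day 21, day 42 and day 42 loaded with it, 3, 5 and 4 of the 10 lay above the floor. At days 3, 21 and 42 without it 7, 8 and 8 did. Of 9 compared at day 42, 5 were lower with TGF-beta3 and 1 was higher (background 15.7% and 25.5% of all genes). The summed signal of 5 adipocyte markers was between 5057 and 15415 without it and between 461 and 921 with it. Of 6 endothelial markers CDH5, VWF and KDR were under the floor on all 6 arrays, PECAM1 was above it on 1 array (20.8), and ERG rose. The part of these cells, shifts and ratios in the results below was not tested.

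**Figure D1:**
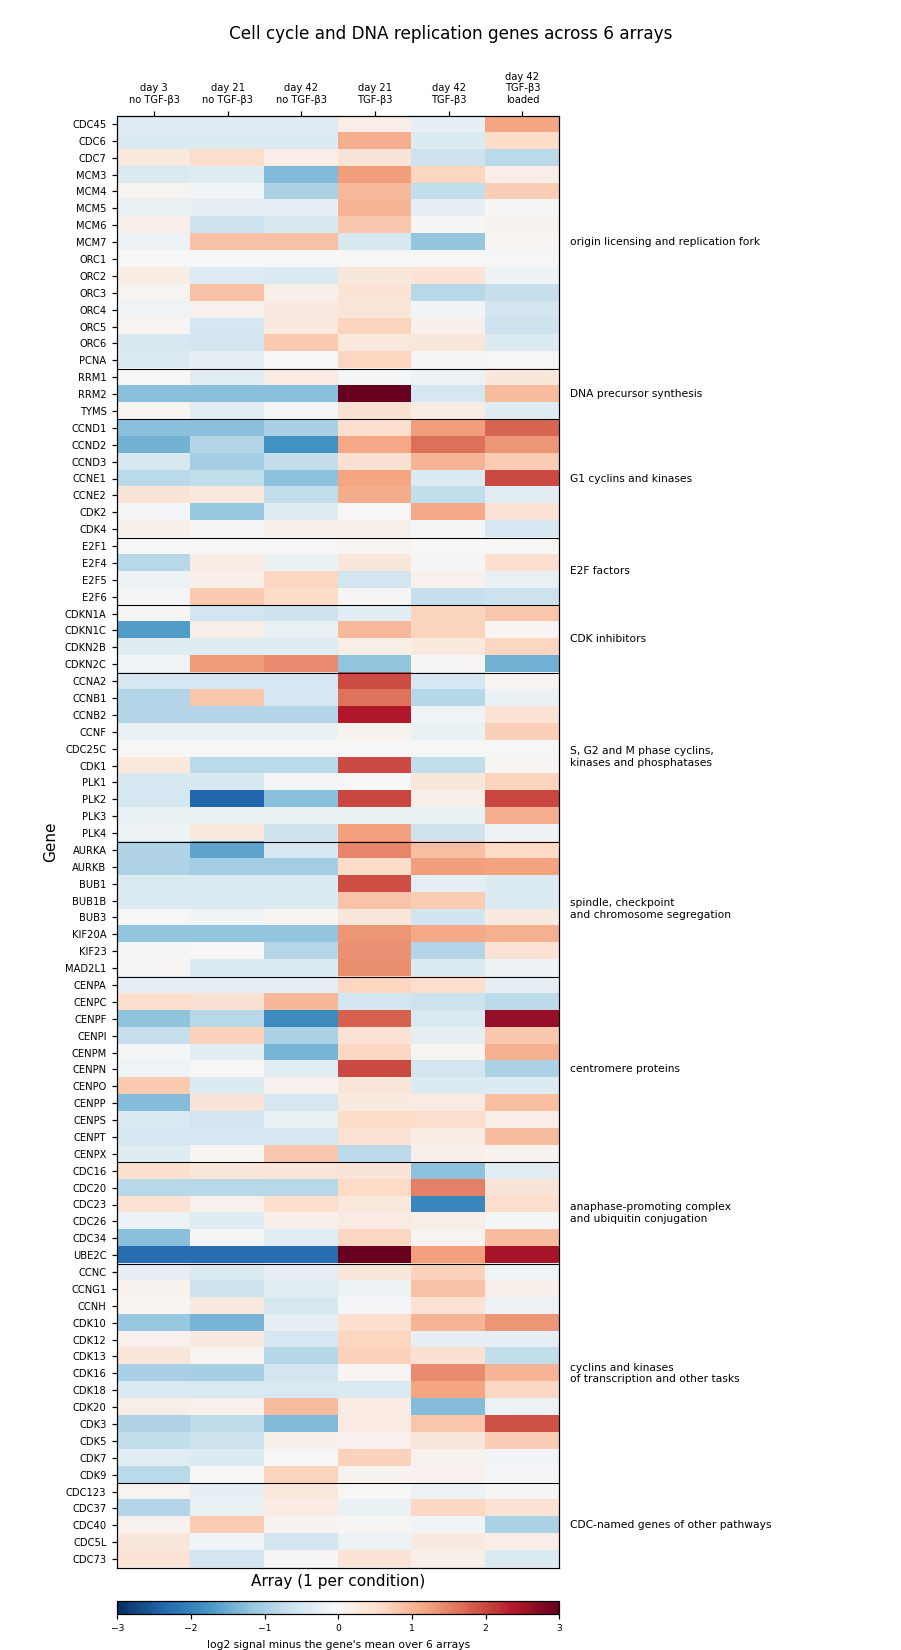
Log2 signal of each of the 86 genes (rows, grouped by role) on the 6 arrays (columns), after values under the floor of 15.1 were set to it, minus the gene's own mean over the 6 arrays; colours end at 3 in either direction. The day 21 column with TGF-beta3 is red for most mitotic genes, and UBE2C and RRM2 pass the upper end of the scale there.

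More of these genes lay above the floor with TGF-beta3 than without it. At day 21 with TGF-beta3, 82 of the 86 genes lay above the floor (95.3%, where 70.9% of all genes did), against 59 without it (68.6%, all genes 70.5%). At day 42 the numbers were 73 with TGF-beta3 (84.9%, all genes 78.3%), 78 with TGF-beta3 and loading (90.7%, all genes 78.4%), and 56 without TGF-beta3 (65.1%, all genes 69.2%). The day 3 array, which had no TGF-beta3, had 63 (73.3%, all genes 70.3%). The day 21 array with TGF-beta3 held the highest of the 6 signals for 35 of the 86 genes (40.7%, where it did so for 15.7% of all genes above the floor on an array). In 30 genes all 3 signals with TGF-beta3 exceeded all 3 without it, and in 2, CDC40 and CENPC, all 3 were lower. Among all genes above the floor on an array, 22.3% and 12.8% showed these 2 patterns. Both counts, and the shares over all genes, used the signals before values under the floor were set to it. BUB1, BUB1B and CENPA are among the 30 only by the order of values under the floor, since their loaded signals lay under it. Of the 86 genes 47 were above the floor on all 6 arrays and ORC1 on none.

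Over days 21 and 42, 11 genes rose and 2 fell of the 76 that could be tested (14.5% rose, background 7.11% of all genes rising and 7.70% falling; limma, Benjamini-Hochberg adjusted p under 0.05 over 14839 probe sets). Those that rose were UBE2C, PLK2, CCND2, RRM2, KIF20A, AURKA, CCNB2, CCND1, AURKB, CDC20 and CCND3, and those that fell were CDKN2C and MCM7. A gene entered the test when 2 or more of the 4 arrays showed it above the floor. For 13 of the 76 those were just the 2 arrays with TGF-beta3 among these 4, so these genes had to differ, and 6 of them rose (UBE2C, RRM2, KIF20A, CCNB2, AURKB and CDC20). Of the other 63, 5 rose (PLK2, CCND1, CCND2, CCND3 and AURKA), where 6.27% of all such genes did (411 of 6557). Over all genes tested 486 of 6835 rose, and the remainder of both numbers are genes that entered as the 13 did. Many genes outside this group thus rose by the same route, and the 6 of 13 was not tested against them.

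These calls rest on the spread pooled over probe sets and on the settings of the test. The fit had 1 residual degree of freedom, and 2 genes rose without the day term, 5 rose after centring the arrays on their spikes (2 fell there too), and none of 24016 probe sets passed when dim ones were not filtered out (2113 had an unadjusted limma p under 0.05).

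**Figure D2:**
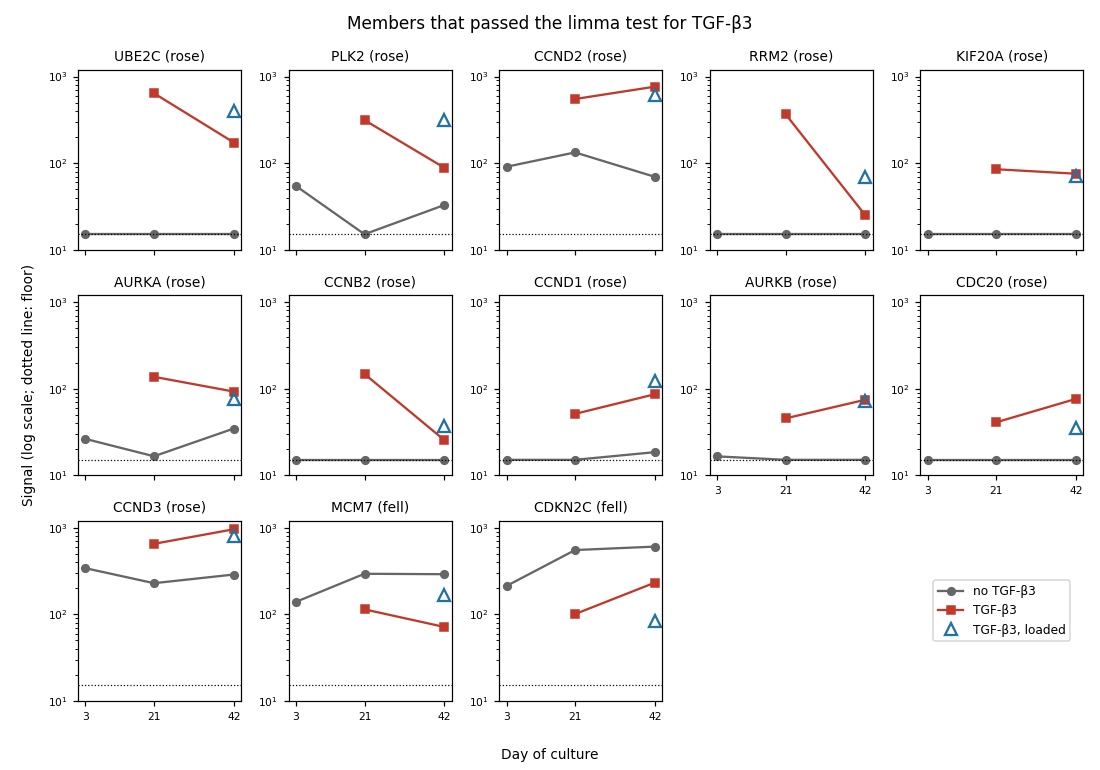
Signal (log scale) against day of culture for the 13 genes that passed the limma test for TGF-beta3, 1 array per point; grey circles are arrays without TGF-beta3, red squares unloaded arrays with it, and blue triangles the loaded array. The dotted line is the floor of 15.1, where values under it are drawn. UBE2C, RRM2, KIF20A, CCNB2 and CDC20 sit on the floor on all 3 arrays without TGF-beta3.

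Among genes that end mitosis, UBE2C had the largest difference. UBE2C is the ubiquitin-conjugating enzyme that works with the anaphase-promoting complex. Its signal was under the floor on all 3 arrays without TGF-beta3 and was 641 at day 21, 173 at day 42 and 405 at day 42 under loading with it. The day 21 signal was at least 42.3-fold higher than without TGF-beta3, the day 42 signal at least 11.4-fold, with a fitted log2 difference of 4.46 ± 0.70 from the floor (SE, 2 arrays a side, adjusted p = 3.06e-06 by limma). Of the 4 arrays of the test, only the 2 with TGF-beta3 showed UBE2C above the floor, so it had to differ. The p-value is therefore no separate support, and with no filter on low values it was 0.544 (adjusted, limma). CDC20, which activates the same complex, was likewise under the floor on all 3 arrays without TGF-beta3. With it CDC20 stood at 41.0 at day 21, 76.5 at day 42 and 35.4 under loading, a fitted log2 difference of 1.89 ± 0.64 from the floor (limma, adjusted p = 0.0388). CDC20 too entered the test through the arrays with TGF-beta3 alone, and with no filter its adjusted p was 0.628 (limma). Subunits of the complex itself did not pass the test. CDC26 ranged from 723 to 1099 over the 6 arrays. At day 42 with TGF-beta3 CDC16 was 80.3 unloaded and 147 loaded, against 237 to 263 on the other 4. CDC23 was under the floor on the unloaded day 42 array with TGF-beta3 and 64.2 to 84.8 on the other 5.

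The mitotic kinases and the motor KIF20A followed. AURKA, a kinase of the spindle poles, had signals of 26.4, 16.6 and 34.8 at days 3, 21 and 42 without TGF-beta3, and 137, 92.7 and 75.4 at day 21, day 42 and day 42 loaded with it. The groups did not overlap, and AURKA rose, by 2.23 ± 0.73 on the log2 scale (limma, adjusted p = 0.0316). A second AURKA probe set was 149 against 22.4 at day 21, but 44.7 against 48.9 at day 42 (adjusted p = 0.270 by limma). AURKB, the kinase of the chromosomal passenger complex, was above the floor without TGF-beta3 at day 3 alone (16.6) and reached 45.5, 74.8 and 72.5 with it, a fitted log2 difference of 1.95 ± 0.64 with values at the floor on both untreated arrays (limma, adjusted p = 0.0335). AURKB has 2 probe sets, and with the median over them in place of the brighter one its call was lost. KIF20A, a kinesin of late mitosis, lay under the floor on the 3 untreated arrays and was 85.2, 75.6 and 71.0 with it, a fitted log2 difference of 2.41 ± 0.68 from the floor (limma, adjusted p = 0.0102). Its other probe set was 83.6 against 17.2 at day 21, and under the floor on both arrays at day 42 (adjusted p = 0.223 by limma). AURKB and KIF20A entered the test through the arrays with TGF-beta3 alone, so they had to differ. With no filter on low values their adjusted p was 0.620 and 0.628 (limma).

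PLK2, a polo-like kinase known to be induced early after growth stimuli, was also among those that rose. Without TGF-beta3 its signals were 54.5 at day 3, under the floor at day 21 and 32.9 at day 42. With TGF-beta3 they were 314, 88.5 and 316 at day 21, day 42 and day 42 loaded. PLK2 rose, with a fitted log2 difference of 2.90 ± 0.74, taking the untreated day 21 value at the floor (limma, adjusted p = 0.00418). PLK1, the polo kinase of mitotic entry, stayed dim, between under the floor and 20.5 without TGF-beta3 and between 21.4 and 33.9 with it, and PLK4, which copies centrioles, reached 55.4 at day 21 with TGF-beta3 and was under the floor on both unloaded day 42 arrays. Neither passed the test (adjusted p = 0.659 and 0.676 by limma).

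The cyclins CCNB2 and CCNA2, CDK1 and the checkpoint genes BUB1 and MAD2L1 were highest at day 21 with TGF-beta3. Each was at most 37.0 on every other array. CCNB2, a mitotic cyclin, was under the floor on all 3 arrays without TGF-beta3 and was 148 at day 21, 25.5 at day 42 and 37.0 under loading with it. It rose, with a fitted log2 difference of 2.02 ± 0.67 from the floor (limma, adjusted p = 0.0346). CCNB2 entered the test through the arrays with TGF-beta3 alone, so it had to differ, and with no filter its adjusted p was 0.681 (limma). CDK1, the kinase these cyclins activate, was 33.0 at day 3 and under the floor at days 21 and 42 without TGF-beta3, and 106, 16.0 and 27.8 with it. It did not pass the test (mean log2 1.44 ± 0.62, adjusted p = 0.119 by limma). CCNB1 was 49.0 without and 85.3 with TGF-beta3 at day 21, but 19.1 and 15.3 at day 42. CCNA2, the cyclin of S and G2 phase, was 83.6 at day 21 with TGF-beta3 and 22.7 under loading, and under the floor on the other 4 arrays, so the test did not include it. BUB1, a spindle checkpoint kinase, was 76.7 at day 21 and 16.7 at day 42 with TGF-beta3 and under the floor elsewhere. Its relative BUB1B was 36.4 at day 21 and 34.1 at day 42 with TGF-beta3 and under the floor elsewhere. MAD2L1, another checkpoint gene, was 53.9 at day 21 with TGF-beta3, 18.5 under loading and 21.1 at day 3. In the spindle and checkpoint group 7 of 8 genes were higher at day 21 with TGF-beta3 (background 14.3%), 5 of them against a value under the floor, and the 1 that was not, BUB3, was bright on all arrays (1288 to 2458).

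All 3 D cyclins, which carry growth factor signals into G1, rose. CCND2 had signals of 91.0, 133 and 69.6 at days 3, 21 and 42 without TGF-beta3, and 550.2, 764 and 609 at day 21, day 42 and day 42 loaded with it. It rose, by 2.75 ± 0.43 on the log2 scale (limma, adjusted p = 3.06e-06). CCND3 was 341, 229 and 288 without and 651, 959 and 799.5 with TGF-beta3, a log2 difference averaging 1.62 ± 0.36 (limma, adjusted p = 0.001). CCND1 was under the floor at days 3 and 21 and 18.6 at day 42 without it, and 51.3, 86.5 and 122 with it, a fitted log2 difference of 1.99 ± 0.67, taking the untreated day 21 value at the floor (limma, adjusted p = 0.0377). For each of the 3 the groups did not overlap. The calls depended on scaling: after centring on spikes none of the 3 passed (limma, adjusted p = 0.176, 0.163 and 0.604 for CCND1, CCND2 and CCND3), and the log2 difference of CCND3 was then 0.81. CCND1 and CCND3 also missed the threshold after median centring (limma, adjusted p = 0.0541 and 0.157), and CCND1 after quantile normalization (limma, adjusted p = 0.0563). Their kinase CDK4 hardly varied, between 414 and 660.4, with a mean log2 difference of -0.02 ± 0.35. CDK2, which partners E and A cyclins, was 19.5 to 41.8 without and 42.5 to 94.2 with TGF-beta3 and did not pass (adjusted p = 0.229 by limma). The E cyclin CCNE1 was under the floor to 21.3 without TGF-beta3 and was 80.1, 26.6 and 139 with it, and CCNE2 was 54.1, under the floor and 19.8, against 33.0, 30.8 and under the floor without it. Neither passed the test (adjusted p = 0.157 and 0.723 by limma).

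CDK inhibitors did not move as a group. CDKN2C, which encodes p18, an inhibitor of CDK4 and CDK6, was 213, 551 and 605 at days 3, 21 and 42 without TGF-beta3 and 101, 232 and 84.5 at day 21, day 42 and day 42 loaded with it. It fell by 1.92 on the log2 scale (SE 0.41, limma, adjusted p = 0.000481), although the day 42 signal with TGF-beta3 exceeded that of day 3 without it. CDKN1A, which encodes the p53 target p21, was bright throughout. It was 3035, 1984 and 1900.4 without TGF-beta3 and 2347, 4679 and 5206 with it, and it did not pass the test (mean log2 0.77 ± 0.36, adjusted p = 0.16 by limma). CDKN1C, encoding p57, was 41.9, 151 and 115 without and 261, 211 and 140 with TGF-beta3 (adjusted p = 0.271 by limma). Another CDKN1C probe set was 16.7 without and 123 with TGF-beta3 at day 42 (adjusted p = 0.0613 by limma). CDKN2B, encoding p15, a TGF-beta target in epithelial cells, lay under the floor on the 3 untreated arrays and was 21.9, 23.8 and 30.2 with it (adjusted p = 0.494 by limma).

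Of the origin and fork genes none rose and MCM7 fell. At day 21, 6 of the 14 compared were higher with TGF-beta3 (MCM3, MCM4, MCM5, MCM6, ORC5 and CDC6; background 14.3% of all genes) and 1 was lower. At day 42 MCM3 was higher and MCM7 lower of 12 compared, where 25.5% of all genes were higher. MCM3, a helicase subunit, was 37.2, 38.8 and 20.0 at days 3, 21 and 42 without TGF-beta3 and 119, 78.3 and 57.5 at day 21, day 42 and day 42 loaded with it. It did not pass the test (mean log2 1.79 ± 0.72, adjusted p = 0.0919 by limma). MCM6 was 154, 87.9 and 97.6 without and 240.0, 141 and 148 with TGF-beta3. MCM4 was 30.8, 27.4 and under the floor without it, and 56.9, 17.4 and 48.8 with it. MCM5 was 37.0 at day 21 with TGF-beta3 and at most 18.7 on the other arrays. MCM7, a subunit of the same ring, was 139, 294 and 290.4 without and 114, 71.5 and 165 with TGF-beta3. It fell by 1.69 on the log2 scale (SE 0.50, limma, adjusted p = 0.0146), while its day 3 signal without TGF-beta3 lay inside the range with it. PCNA, the sliding clamp of DNA polymerase, was 375, 430.1 and 510.0 without and 796, 525 and 511 with TGF-beta3 (adjusted p = 0.435 by limma).

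Of the 3 nucleotide synthesis genes RRM2 stood out. RRM2, the S phase subunit of ribonucleotide reductase, was under the floor on all 3 arrays without TGF-beta3 and was 368 at day 21, 24.9 at day 42 and 69.8 under loading with it. At day 21 it was at least 24.3-fold higher, and the day 42 bound was 1.65-fold, and the fitted log2 difference from the floor was 2.66 ± 0.75 (limma, adjusted p = 0.00988). RRM2 entered the test through the arrays with TGF-beta3 alone, so it had to differ, and with no filter its adjusted p was 0.681 (limma). The large subunit RRM1, which is made throughout the cycle, was between 938 and 1485. TYMS, which makes thymidylate, was 146 to 189 without and 142 to 249 with TGF-beta3, and neither passed the test (adjusted p = 0.903 and 0.514 by limma).

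The E2F and centromere groups were mixed. E2F1, an activating E2F, was above the floor at day 21 with TGF-beta3 alone (16.4). E2F6, a repressor, was 171, 312 and 265 without and 184, 112 and 115 with TGF-beta3, E2F5 was 172, 213 and 298 without and 130.5, 210.1 and 163 with it, and E2F4 was between 41.4 and 105. None of these 3 passed the test (adjusted p between 0.141 and 0.925 by limma). CENPF, a kinetochore protein made in G2 and M phase, was 24.7, 32.0 and under the floor without TGF-beta3 and 194, 41.6 and 358 with it, and it missed the threshold (mean log2 2.03 ± 0.72, adjusted p = 0.051 by limma). CENPA, the centromeric histone, was above the floor on the unloaded arrays with TGF-beta3 alone (29.1 and 26.9). CENPC, which links that histone to the kinetochore, was 126, 123 and 178 without and 60.9, 56.7 and 51.7 with TGF-beta3 (adjusted p = 0.167 by limma). CENPN was 116 at day 21 with TGF-beta3, but 20.1 at day 42 and under the floor when loaded, against 23.7 to 29.2 without it.

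Cyclins and kinases of transcription and other tasks were mostly above the floor, 11 to 13 of 13 on each array. CCNG1, a p53 target, was 2667 to 4473 without and 3758 to 7696 with TGF-beta3, and CDK9, a kinase of transcription elongation, 368 to 1031 without and 624 to 703 with it. By size 4 of 12 compared were higher with TGF-beta3 at day 21 (33.3%, background 14.3%) and 0 lower. At day 42, 6 of 13 were higher (46.2%, background 25.5%) and 1 lower. None of the 12 tested passed limma, and none of the 5 CDC-named genes of other pathways did, among them CDC37, which works with the chaperone HSP90, and CDC5L, a splicing factor.

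**Figure D3:**
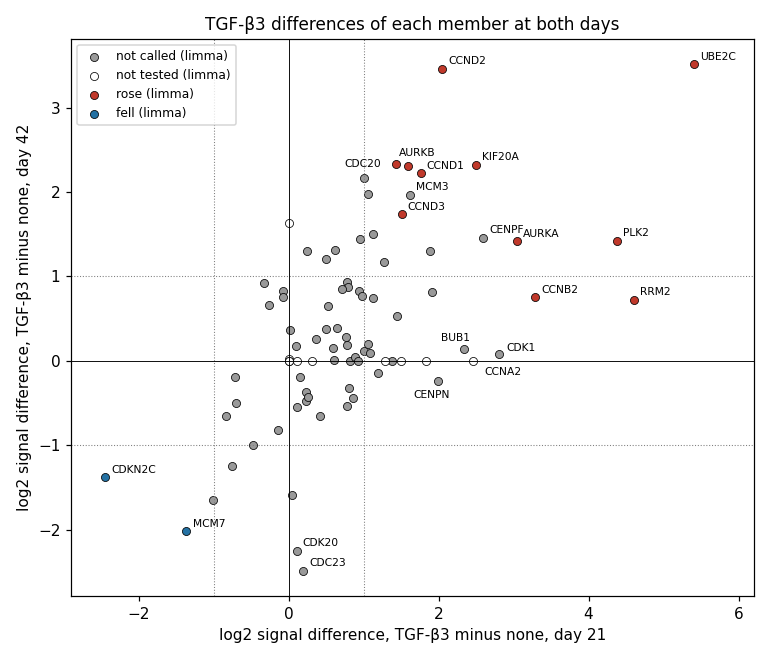
Log2 signal difference between TGF-beta3 and none at day 21 (horizontal axis) and at day 42 (vertical axis) for each of the 86 genes, 1 array a side, values under the floor being drawn as if at it; red and blue points passed the limma test, grey points did not, and open points were not tested. Dotted lines mark 2-fold. CDK1, CCNA2, BUB1 and CENPN lie far to the right near a day 42 difference of 0, and UBE2C and CCND2 are high on both axes.

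By size alone the 2 days differed. At day 21, 33 of the 82 genes compared were higher with TGF-beta3 (40.2%, background 14.3% of all genes) and 3 were lower (3.66%, background 14.0%), namely CDKN2C, MCM7 and CENPC. The median log2 difference of the 86 genes was 0.78, and that of all genes was 0. After the arrays were centred on their spikes the split was 27 higher and 7 lower. At day 42, 21 of 76 were higher (27.6%, background 25.5%) and 7 lower (9.21%, background 15.7%), with a median of 0.18 beside 0 for all genes, so the share higher was near the background. That split was 12 higher and 16 lower after median centring and 6 and 30 after centring on spikes, which moved the median of all genes to -0.61, and with the floor at the 25th percentile 33 were higher. The comparisons of the 2 days share no array. Of the 33 genes higher at day 21, 16 were also higher at day 42, which is 48.5% of the first list and 76.2% of the second. They were AURKA, AURKB, BUB1B, CDC20, CENPF, KIF20A, UBE2C, PLK2, MCM3, all 3 D cyclins, CDK2, CDK3, CDK10 and CDK16. The same overlap over all genes was not counted, so these shares cannot be called particular to this group. Whether TGF-beta3 differences changed between the days was not tested, as each day had 1 array a side.

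**Figure D4:**
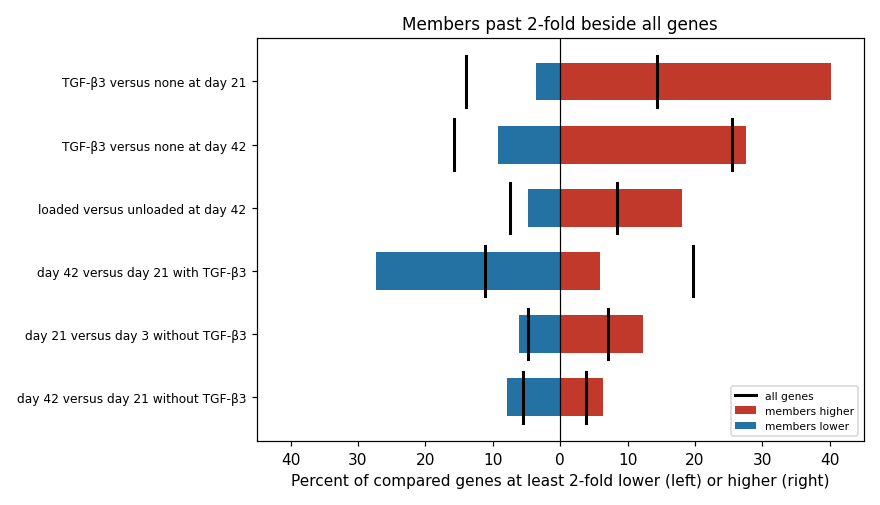
Percent of the compared genes of the group that were at least 2-fold higher (red, right) or lower (blue, left) in each of 6 comparisons of 1 array with another; black lines give the percent of all genes. The bars pass the black lines most clearly at day 21 with TGF-beta3 (40.2% higher, background 14.3%) and from day 21 to day 42 with it (27.4% lower, background 11.1%).

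From day 21 to day 42 with TGF-beta3, RRM2, CDK1 and the A and B cyclins were among the lower genes. Of 84 genes compared 23 were lower at day 42 (27.4%, background 11.1%) and 5 higher (5.95%, background 19.7%), with a median log2 difference of -0.25 beside 0 for all genes. After median centring they were 28 and 2, and after centring on spikes 58 and 0, where all genes moved to a median of -0.61. The lowest were RRM2 (14.7-fold lower), CDK1 (6.60-fold), CCNB2 (5.80-fold), CENPN (5.75-fold) and CCNB1 (5.58-fold), all above the floor on both arrays. The day 42 signals of CCNB1 (15.3) and CDK1 (16.0) were barely above it, so their folds are little more than bounds. CCNA2 was at least 5.52-fold, CENPF 4.66-fold, BUB1 4.59-fold, KIF23, a motor of the dividing cell's midbody, at least 4.70-fold and UBE2C 3.70-fold lower. In the group of S, G2 and M phase cyclins and kinases 6 of 9 compared were lower and none higher, and in the origin and fork group 5 of 14, with PCNA, MCM3, MCM6, MCM7 and CDC45 within 2-fold. The 5 higher were CDK18 (at least 3.09-fold), CDK16 (2.57-fold), CDKN2C (2.31-fold), CDK2 (2.21-fold) and CCNG1 (2.05-fold). They were compared on arrays whose spikes differed by log2 1.19 in that direction, and under spike centring the log2 differences of CDK2 and CCNG1 were -0.039 and -0.15. AURKB, KIF20A, BUB1B, CENPA and CENPS lay within 2-fold between the 2 days, as did PLK1. The D cyclins were within 2-fold too, with log2 differences of 0.75 for CCND1, 0.47 for CCND2 and 0.56 for CCND3, each smaller than the spike difference of 1.19.

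Dynamic compression went with higher signals of 15 of the 83 genes compared (18.1%, background 8.41%) and lower signals of 4 (4.82%, background 7.41%). The median difference was 0 for the 86 genes and for all genes. The 15 included S phase and mitotic genes and for 4 of them (CCNE1, CDK20, CENPI and CENPM) no other probe set pointed the same way. CENPF had the largest difference, from 41.6 unloaded to 358 loaded (8.60-fold higher), though a second CENPF probe set went from 20.6 to 36.4. CDC23, a subunit of the anaphase-promoting complex, went from under the floor to 84.6 (at least 5.59-fold), a level close to that of the other arrays (64.2 to 84.8). CCNE1 went from 26.6 to 139 (5.23-fold higher), while its other probe set went from 38.9 to 29.6. PLK2 went from 88.5 to 316 (3.57-fold), MCM4 from 17.4 to 48.8 (2.81-fold), RRM2 from 24.9 to 69.8 (2.80-fold) and UBE2C from 173 to 405 (2.34-fold), each on its sole probe set. CDC45, which travels with the MCM ring at the fork, went from 16.8 to 45.3 (2.69-fold), and MCM7 from 71.5 to 165 (2.31-fold). The 4 lower genes were CDKN2C (232 to 84.5, 2.75-fold), CDK13 (143 to 61.5, 2.32-fold, with its other 2 probe sets within 2-fold), BUB1B (34.1 to under the floor) and CDC20 (76.5 to 35.4, 2.16-fold). With both arrays centred on their spikes, which were log2 0.33 lower on the loaded array, 16 were higher and 1 lower, and a floor of 100 left 3 and 1. Loaded and unloaded conditions had 1 array each, so the difference has no replicate check.

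**Figure D5:**
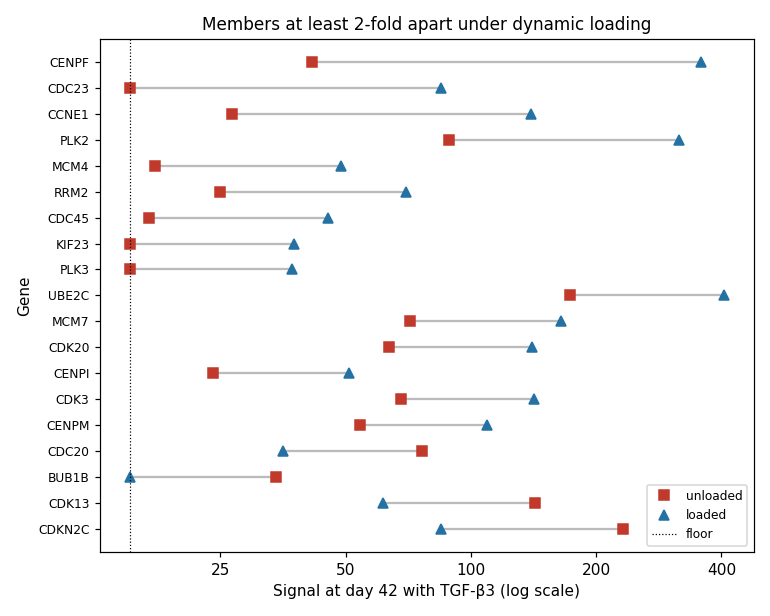
Signal on the day 42 arrays with TGF-beta3 (log scale) for the 19 genes at least 2-fold apart between the unloaded (red squares) and loaded (blue triangles) construct, 1 array each, ordered by difference. The dotted line is the floor of 15.1, where values under it are drawn. The loaded array is the higher for 15 genes, from CENPF to CENPM, and the lower for CDC20, BUB1B, CDK13 and CDKN2C.

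Several genes that were lower at day 42 than at day 21 with TGF-beta3 were higher under loading. These comparisons share the unloaded day 42 array, so a low value there alone gives both differences, and the 3 signals are given side by side. At day 21, day 42 and day 42 loaded UBE2C stood at 641, 173 and 405, PLK2 at 314, 88.5 and 316, RRM2 at 368, 24.9 and 69.8, and CENPF at 194, 41.6 and 358. CCNB1 stood at 85.3, 15.3 and 24.2 and CDK1 at 106, 16.0 and 27.8. CCNB1 and CDK1 were therefore within 2-fold of the unloaded level under loading, and RRM2 stayed far under its day 21 signal.

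Without TGF-beta3 few of these genes differed with time. From day 3 to day 21, 8 of 65 compared were higher (12.3%, background 7.03%) and 4 lower (6.15%, background 4.72%). The higher ones included 2 CDK inhibitors, CDKN1C (41.9 to 151, 3.61-fold) and CDKN2C (213 to 551, 2.59-fold). CCNB1 (at least 3.23-fold) and CENPP (at least 3.20-fold), CENPI (2.59-fold), CDC34 (2.32-fold), MCM7 (2.11-fold) and E2F4 (2.09-fold) were the others. The lower ones were PLK2 (at least 3.60-fold), CENPO (at least 2.29-fold), CDK1 (at least 2.18-fold) and CDK2 (2.15-fold). The split was 14 and 3 after centring on spikes. From day 21 to day 42, 4 of 63 were higher (6.35%, background 3.83%), namely ORC6, PLK2, CDK10 and AURKA, and 5 were lower (7.94%, background 5.49%), namely CENPI, CCNB1, CENPF, CENPM and CCNE2. Scaling turned this split, to 10 and 3 after median centring, 4 and 3 after quantile normalization and 2 and 13 after centring on spikes. The median difference of the 86 genes was 0 in both comparisons.

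Other genes of the same pathways, from lists outside the naming rule, were described in the same way. Of 34 other mitosis genes with a probe set, 28 could be tested with limma and 8 rose (CKS2, NCAPG, HMMR, BIRC5, SPC24, CDCA3, CDCA7 and CDCA8; background 7.11% of all genes) while STMN1 fell (background 7.70%). Of the 34, 17 and 16 lay above the floor without TGF-beta3 at days 21 and 42, against 32 and 28 with it. Genes that entered the test through the arrays with TGF-beta3 alone had to differ, and they were not split out here. CKS2, a CDK-binding protein, had a signal of 108 without and 712 with TGF-beta3 at day 21, and 45.2 and 339.8 at day 42. CDCA8, a passenger complex protein, was higher on both days, by at least 20.8-fold on day 21 and at least 2.19-fold on day 42. STMN1, which destabilises microtubules, was 4446 without and 1911 with TGF-beta3 at day 21, and 5619 and 607.5 at day 42. By size 19 of 32 were higher at day 21 and 1 lower (background 14.3% higher and 14.0% lower), while day 42 had 10 higher and 3 lower of 29 (background 25.5% and 15.7%). From day 21 to day 42 with TGF-beta3, 18 of 33 were lower and 1 higher (background 11.1% and 19.7%).

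Of 31 other replication genes GINS4, a subunit of the replicative helicase, was the 1 that rose among 28 tested, and none fell. Among all genes tested 7.11% rose and 7.70% fell. GINS4 was 16.4 without and 77.5 with TGF-beta3 at day 21, and under the floor and 105 at day 42. By size 12 of 30 were higher and 2 (PRIM1 and POLA1) lower at day 21 (background 14.3% and 14.0%), while day 42 had 7 higher and 1 lower of 27, near the background of 25.5% higher. Of 8 checkpoint and repair genes none passed the test, and 3 (CHEK1, WEE1 and FANCI) were higher at day 21 (background 14.3%). Among 12 genes of the retinoblastoma family, p53 targets and quiescence, MDM2, GADD45B and SESN2 rose and SESN1 fell. All 12 were tested (background 7.11% of all genes rising and 7.70% falling). MDM2, which degrades p53, was 77.4 without and 359.5 with TGF-beta3 at day 21 and 40.8 and 273 at day 42. SESN1, a stress response gene, was 645 without and 62.7 with it at day 21 and 787 and 301.5 at day 42.

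Where a gene had several probe sets, these did not always go the same way. Of 15 genes past 2-fold at day 21 with TGF-beta3 that had other probe sets, all of these pointed in the same direction in 11, and none was past 2-fold in the opposite one. At day 42 this held for 6 of 12, and a CDK20 probe set went against the 1 used here by more than 2-fold. CDK20 is therefore uncertain, with log2 differences of -2.25 and 1.85 at day 42 on these 2 probe sets. Under loading the other probe sets went the same way in 2 of 6 genes, from day 21 to day 42 in 4 of 8 with TGF-beta3 and 2 of 6 without it, and from day 3 to day 21 in 0 of 3. A probe set under the floor on both arrays counts as not going the same way.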

How the data were processed

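Signals are the intensity values deposited by the authors, on a linear scale; the submitters' processing notes name MAS5 and give no version. RNA was amplified linearly before labelling, per the labels' protocols. Each array has the same trimmed mean of about 150, leaving out 2% at each end, so only relative levels can be compared. Of 24128 probe sets 112 controls were left out, 13292 had a single gene symbol in the platform's annotation, and these gave 9155 genes.

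Values under the 40th percentile (15.1) were set to it and log2 was taken. Differences between single arrays were counted at 2-fold among features that passed the floor on either array, with no test. The test used limma 3.58.1 in R 4.3.3 (lmFit, and eBayes with a trend) on 4 unloaded arrays, with terms for day and TGF-beta3, over 14839 probe sets, with Benjamini-Hochberg adjustment. The script was tested on simulated data. The number of arrays limits the precision.

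Genes named are all that passed limma, the 5 highest and 5 lowest past 2-fold in each comparison, and a set of standard cycle genes (MCM, D and E cyclin, CDKN and E2F members among them). From other lists they are those that passed limma and extremes at day 21. CDC26, CDC16, CDC37, CDC5L, CDK9, BUB3, PLK4, RRM1, KIF23, CHEK1, WEE1, FANCI and the further genes shown for contrast were chosen after their values were seen. The members and lists were chosen with earlier results of these data known. Alternatives were other scalings, floors, probe set rules, models and left-out arrays. The fit with no filter on low values was added after seeing the data. Promoter motifs were not analysed here. Nothing in the labels says that arrays came from separate cultures or animals, so p-values measure only the spread between these arrays.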

Additional observations from a re-analysis of the deposited data

Results flagged for a closer look

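PLK2 went opposite ways with time in the 2 media. From day 21 to day 42 its log2 difference was -1.83 with TGF-beta3 (314 to 88.5) and 1.12 without it (under the floor to 32.9, a bound). Each change rests on 1 array a side, and the difference between them was not tested.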

How the results depend on the processing

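The limma counts (11 rose, 2 fell) depended on the model and the filter. Spike centring gave 5 rising, a floor of 100 gave 5, no day term gave 2 rising and 0 falling, and adding the loaded array gave 7 and 1. Without a filter on low values 0 rose and 0 fell (2113 of 24016 probe sets had an unadjusted p under 0.05). The falling count was 1 after median centring or when the loaded array replaced its unloaded counterpart, and 0 with no variance trend. Leaving out 1 array at a time, without the day term, gave 2 to 13 rising and 0 to 7 falling. It was 2 and 0 without the day 21 or the day 42 array lacking TGF-beta3, and 13 and 7 without the day 21 array with it. The day term pairs the arrays of a day, and the labels carry no replicate numbers for another pairing.

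Counts by size moved mostly with the floor and with spike centring. At day 21 with TGF-beta3 a floor of 100 gave 9 higher, and spike centring 7 lower. At day 42 the higher count was 12 after median centring, 6 after spike centring, 33 with the 25th percentile floor and 4 with a floor of 100, and the lower count 16 and 30 after median and spike centring. Under loading a floor of 100 gave 3 higher and 1 lower, spike centring 1 lower and the 25th percentile 8 lower. From day 21 to day 42 with TGF-beta3 the higher count was 2 after median centring, 0 after spike centring and 2 with a floor of 100, and the lower count 58 after spike centring and 5 with a floor of 100. From day 3 to day 21 without TGF-beta3 spike centring gave 14 higher, a floor of 100 gave 3 higher and 0 lower, and the 25th percentile 8 lower. From day 21 to day 42 without it the higher count was 10, 2, 8, 1 and 2 after median centring, spike centring, the 25th percentile, a floor of 100 and the median over probe sets. The lower count was 3, 13, 8, 0 and 2 there, and 3 after quantile normalization. The cause was not tested, except that a floor of 100 leaves fewer genes to compare.

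Among named genes CDK20 turned at day 42 with TGF-beta3 to 0.93 with the median over its probe sets. CDK2 and CCNG1 turned to -0.039 and -0.15 from day 21 to day 42 after spike centring. Single-gene results otherwise kept their direction: of their alternatives 335 kept the size or call, 94 moved and 71 lost it. Signals near 15.1 have no order.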
